A study of Mus musculus with 4 samples.

Results

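The genes described here encode the enzymes and transporters of glycolysis and the hypoxia response, which is run by the hypoxia-inducible factors (HIF). They were taken as 41 symbols, 28 of glycolysis and pyruvate use and 13 of the HIF system, and were looked up in the annotation of the array's probe sets. Of these, 38 were measured among 19938 genes in all. Gapdh was listed only on probe sets that carry several gene symbols, and Gpi1 and Eno1 were not listed, so these 3 were not analysed here. The samples were whole bone marrow of leukemic C57BL/6 mice, and the leukemia carried MLL-AF9, a fusion protein found in human acute myeloid leukemia. RNA from 4 leukemic marrows was hybridised to 1 mouse gene array each. The wild-type group held 2 marrows with MLL-AF9 and intact Hes1 (Hes1+/+), and the Hes1-null group held 2 with MLL-AF9 and no functional Hes1 (Hes1-/-). Hes1 encodes a transcriptional repressor induced by Notch signalling, and the study asks whether it carries the suppression of this leukemia by Notch. The marrow was taken whole, so leukemic cells and remaining normal cells were measured together. The labels do not say how MLL-AF9 was delivered, what ages the mice were, or that the samples came from separate animals, so the p-values rest on the spread among these 4 samples only, part of which may be technical.

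Glycolysis splits glucose into pyruvate in the cytosol. Glucose enters through facilitative transporters, hexokinase and phosphofructokinase set the pace, and the pyruvate is turned into lactate or passed to mitochondria. Several steps have isoenzymes from different genes, and myeloid cells are known to rely heavily on this pathway. When oxygen is low, prolyl hydroxylases stop marking the HIF alpha subunits for VHL-directed destruction, and HIF then activates most glycolytic genes together with genes of vessel growth, mitophagy and collagen modification. Bone marrow is a tissue with low oxygen in places.

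Levels are log2 of the deposited intensity, and a difference is the Hes1-null mean minus the wild-type mean on that scale, with the standard error (SE) of limma's moderated fit and n = 2 arrays per genotype throughout. A probe set's level depends on its probes, so levels were not compared between genes. Across genes r was 0.995 between the wild-type arrays and 0.982 between the Hes1-null arrays, and 109 and 683 genes lay at least 2-fold apart within the respective genotype. Hes1 itself lay at 5.59 and 5.79 in wild type and 5.43 and 5.84 in Hes1-null marrow, so its level did not separate the genotypes. The labels do not say whether its probe set lies in the deleted part, so it does not check them, and Hes1-null means labelled so.

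No member passed the test over all genes, in which 0.145% of genes did (29 of 19938, adjusted p under 0.05 by limma; 0.0702% higher and 0.0752% lower in Hes1-null marrow). At an unadjusted p under 0.05 stood 4 of the 38 members (10.5%), against 8.29% of all genes, so the share was near the background. All 4 were lower in Hes1-null marrow: Ndrg1, Hk3, Epas1 and Slc16a3. None was higher at that threshold, which 3.51% of genes reached in that direction, and 4.78% reached it in the lower direction. Both Hes1-null arrays lay outside the wild-type pair for 18 members (47.4%), 10 higher and 8 lower, where 38.0% of all genes did so (17.4% higher and 20.6% lower). Among the 10 was Hk1, whose genotypes overlapped on its other probe set, as given below. The 25 glycolysis members had a median difference of 0.008 and the 13 HIF members one of -0.068, beside -0.017 over all genes. The difference was above 0 for 17 of the 38 members, and for 46.4% of all genes. The median absolute difference was 0.17 for the members and 0.14 for all genes. Ndrg1 was the only member at least 2-fold apart, as were 2.05% of genes. The 95% interval stayed within a 2-fold change in either direction for 32 of the 38 members and for 17499 of the 19938 genes.

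**Figure D1:**
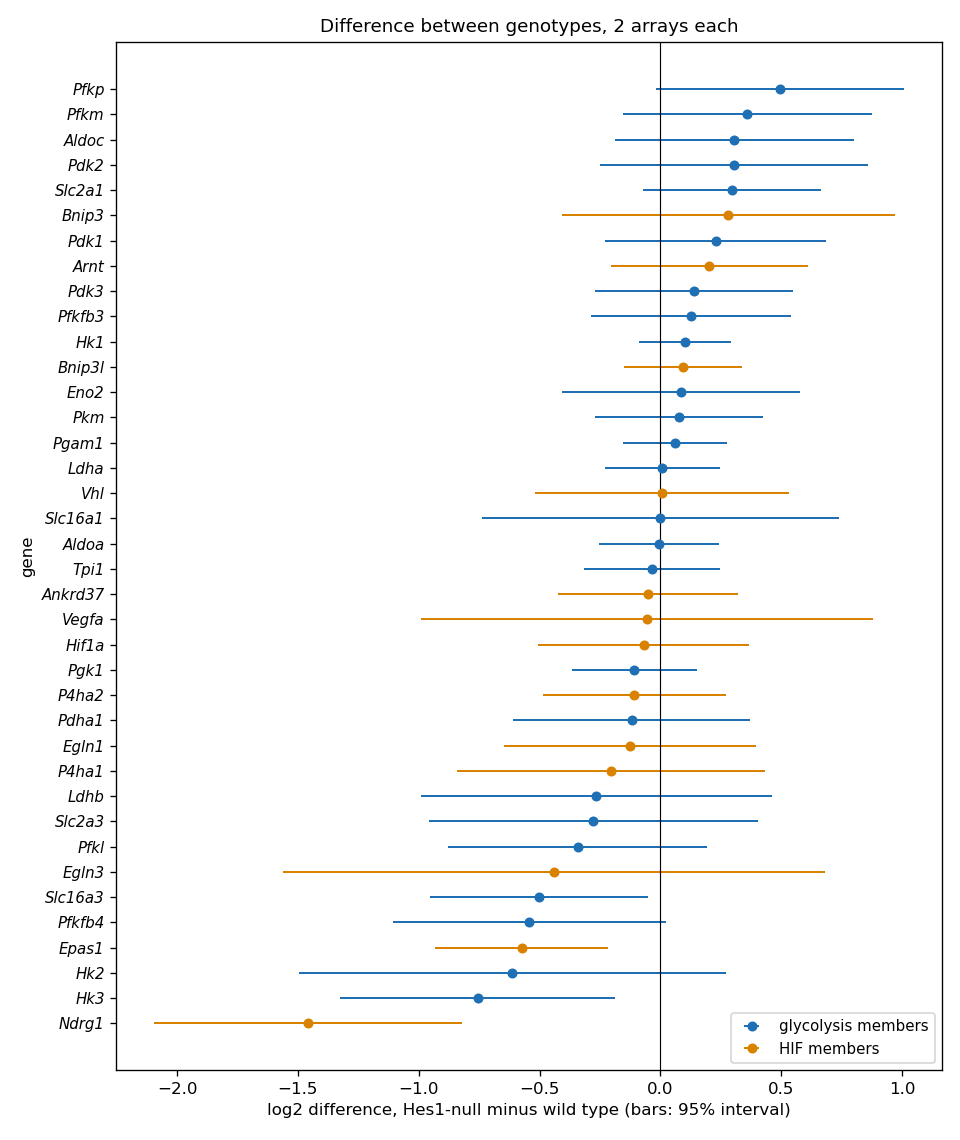
Log2 difference of each measured member (Hes1-null minus wild type, x axis) for 38 genes (y axis), with points for the limma estimate from 2 arrays per genotype and bars for its 95% interval. Only Ndrg1, Hk3, Epas1 and Slc16a3 have intervals that leave out 0, all on the lower side, and no member passed the adjusted threshold.

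The sequence before the start sites was read because HIF binds a short core, ACGTG, next to many of these genes. RefSeq promoter windows (build GRCm38.p6, 250 bases before to 50 after a start) matched 37 of the 41 members with 52 windows; Slc2a3, Epas1, Bnip3l and Ndrg1 had no entry. The HIF core was searched on both strands and includes the E box CACGTG, which contains it on each strand. It was found in 28 of the 52 member windows (53.8%) and in 21.6% of 19177 windows of genes measured on the array. Windows of 1 gene can overlap, and the member windows were richer in G and C, with a median of 62.2% against 57.3%. Sites that HES proteins are known to bind were the N box CACNAG, in 46.2% of member windows and 41.8% of all measured genes' windows, and the class C site CACGCG, in 26.9% and 13.1%. A match is a description of letters and was not shown to be a bound site. The stretches below are from 7 members, with differences from -0.76 (Hk3) to 0.30 (Slc2a1). Besides these 2 genes, the stretches come from the transporter gene Slc16a3, the hexokinase gene Hk2, the enzyme genes Pgk1 and Ldha and the mitophagy gene Bnip3. Each runs from 20 bases before the first to 20 after the last HIF core upstream of the start, cut at the window's first base or at the start, is written 5′ to 3′ on the gene's strand, and has the core (ACGTG, or CACGT on the other strand) in capitals.
Slc2a1, chr4:119108689-119108733, plus strand: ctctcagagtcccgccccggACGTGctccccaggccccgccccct
Slc16a3, chr11:120949020-120949066, plus strand: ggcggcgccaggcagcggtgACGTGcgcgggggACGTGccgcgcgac
Hk2, chr6:82774482-82774700, minus strand: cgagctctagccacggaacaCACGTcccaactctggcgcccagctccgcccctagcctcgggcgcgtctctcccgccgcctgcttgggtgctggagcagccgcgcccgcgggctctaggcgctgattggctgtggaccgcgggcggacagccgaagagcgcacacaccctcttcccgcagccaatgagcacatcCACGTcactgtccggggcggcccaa
Hk3, chr13:55021517-55021561, minus strand: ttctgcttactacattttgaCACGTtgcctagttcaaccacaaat
Pgk1, chrX:106186930-106186993, plus strand: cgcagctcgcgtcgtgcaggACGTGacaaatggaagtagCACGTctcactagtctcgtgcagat
Ldha, chr7:46845639-46845794, plus strand: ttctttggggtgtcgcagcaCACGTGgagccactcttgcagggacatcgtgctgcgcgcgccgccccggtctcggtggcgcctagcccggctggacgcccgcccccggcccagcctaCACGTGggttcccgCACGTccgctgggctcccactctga
Bnip3, chr7:138909589-138909634, minus strand: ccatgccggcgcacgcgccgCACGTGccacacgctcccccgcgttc
The Slc16a3 stretch holds 2 cores directly before the start, and that of Ldha holds 2 E boxes and a further core. The 24 measured members with a core had a median difference of -0.003, with 7 higher (Hk1 among them) and 4 lower on both Hes1-null arrays. The 10 with a window but no core had a median of -0.014, with 3 higher and 2 lower. The 4 members without a window, Slc2a3, Epas1, Bnip3l and Ndrg1, are in neither set. Their median was -0.43, with 0 higher and 2 lower. Over all genes 17.4% lay higher and 20.6% lower on both Hes1-null arrays, as given above.

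**Figure D2:**
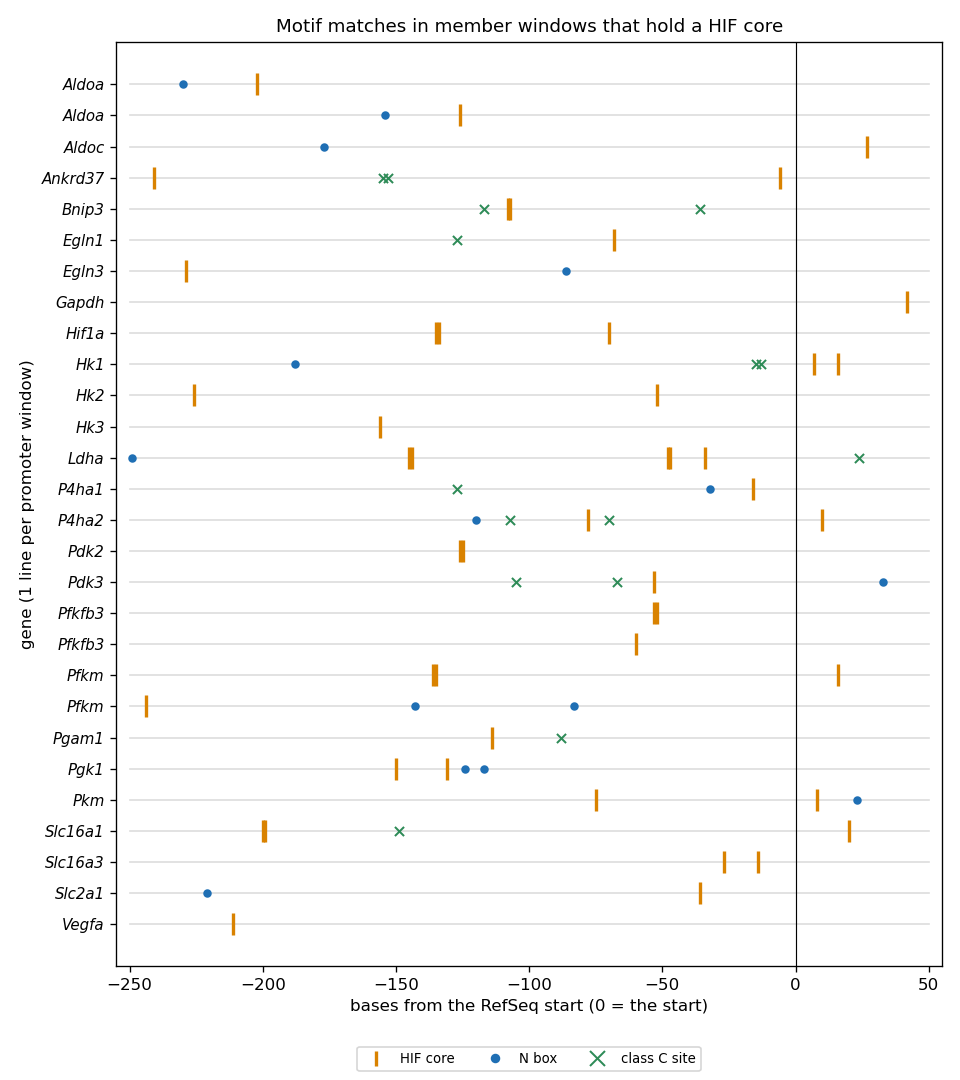
Position of motif matches (x axis, bases from the RefSeq start) in the 28 member windows that hold a HIF core (y axis, 1 line per window), for the HIF core (bars), the N box (dots) and the class C site (crosses), both strands. Matches to the HIF core are spread over the windows, and most lie before the start.

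Among the transporters, the genotypes did not overlap for the main lactate exporter gene, which was lower in Hes1-null marrow, and for the main glucose importer gene, which was higher. Slc16a3, encoding the proton-linked monocarboxylate transporter that exports lactate from glycolytic cells, lay at 9.77 and 10.04 in wild type and 9.51 and 9.28 in Hes1-null marrow (probe set 10383502). Both Hes1-null arrays were below both wild-type arrays. The difference was -0.50 ± 0.18 (1.42-fold lower, 95% interval from -0.95 to -0.051), with limma giving 0.0349 as the unadjusted p and 0.553 as the adjusted p. The widely expressed glucose transporter gene Slc2a1 lay at 10.30 and 10.40 in wild type and 10.52 and 10.76 in Hes1-null marrow. Its Hes1-null arrays were both the higher ones, but the difference of 0.30 ± 0.15 (95% interval from -0.074 to 0.67) did not pass (unadjusted p = 0.0963 by limma). The high-affinity glucose transporter gene Slc2a3 lay at 7.92 and 8.64 in wild type and 7.99 and 8.02 in Hes1-null marrow, where wild-type replicate 2 alone was high. The monocarboxylate transporter gene Slc16a1, which can carry lactate in either direction, lay at 8.07 and 8.25 in wild type and 8.56 and 7.76 in Hes1-null marrow. The Hes1-null arrays stood on either side of the wild-type pair, and the 95% interval of the difference ran from -0.74 to 0.74.

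Hexokinase traps glucose in the cell by phosphorylation, and the 3 hexokinase genes lay on both sides of 0. Hk3, the hexokinase gene known for its expression in granulocytes and monocytes, lay at 9.95 and 9.90 in wild type and 9.45 and 8.88 in Hes1-null marrow (probe set 10409376). The difference was -0.76 ± 0.23 (1.69-fold lower, 95% interval from -1.32 to -0.19, unadjusted p = 0.0183, adjusted p = 0.457 by limma). Both Hes1-null arrays were lower, and their gap of 0.57 was smaller than the difference between genotypes. In bulk marrow, fewer cells of a type and less RNA per cell cannot be told apart. The inducible hexokinase gene Hk2 lay at 8.66 and 8.56 in wild type and 8.51 and 7.48 in Hes1-null marrow, with Hes1-null replicate 2 well below the other arrays and a difference of -0.61 ± 0.35 (95% interval from -1.50 to 0.27). The rule for members with several probe sets took a bright one for Hk1, the ubiquitous hexokinase gene, at 12.44 and 12.43 in wild type and 12.53 and 12.54 in Hes1-null marrow (probe set 10414661). That probe set lists no RefSeq transcript, and 16 other probe sets, at levels from 10.54 to 12.75, are listed for Hk1 together with the ribosomal protein gene Rpl17. The other Hk1 probe set (10369541), which lists RefSeq transcripts, lay at 8.95 and 9.24 in wild type and 9.32 and 9.13 in Hes1-null marrow, with overlapping genotypes. In a fit of all probe sets the differences were 0.10 ± 0.072 by the first and 0.13 ± 0.19 by the second.

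Markers of white blood cells were measured beside Hk3. Of 18 measured neutrophil genes (19 listed), 13 were lower and 2 higher on both Hes1-null arrays, where 20.6% and 17.4% of all genes were, 9 had a lower value at an unadjusted p under 0.05 and Ltf passed the adjusted threshold by limma. Their summed intensity was 41862 and 50015 in wild type and 24844 and 25039 in Hes1-null marrow. Of 17 monocyte and macrophage genes (20 listed), 14 were lower and 1 higher on both Hes1-null arrays, 11 had a lower value at an unadjusted p under 0.05 and Vcam1 passed the adjusted threshold, and their sum was 16395 and 15689 against 9122 and 8966. At an unadjusted p under 0.05 by limma, 4.78% of all genes were lower. No listed gene of either kind was at 0 on any array, which does not show detection, as there were no detection calls. The part of these cells in the values of Hk3, Slc16a3 and the other members was not tested. Of 10 measured T cell genes 6 were lower and 1 higher on both Hes1-null arrays, with sums of 1138 and 824 in wild type and 605 and 525 in Hes1-null marrow. These sums lean on Cd28, which lay at 9.07 and 7.86 in wild type and 6.14 and 6.07 in Hes1-null marrow. The median difference of the list was -0.33, and Cd3e differed by -0.39 ± 0.15. Of 12 measured B cell genes 2 were lower and 2 higher, with sums of 1351 and 1333 against 1903 and 1117. Immediate early genes, which respond within minutes to stimulation or handling, stood higher on both Hes1-null arrays for 13 of 15, with sums of 4855 and 5422 against 13251 and 20836, and Jun passed the adjusted threshold by limma. Their part in the members' values was not tested either.

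Phosphofructokinase commits sugar to glycolysis, and its 3 subunit genes lay on both sides of 0. The platelet-type subunit gene Pfkp lay at 9.01 and 8.99 in wild type and 9.27 and 9.72 in Hes1-null marrow, with both Hes1-null arrays higher (0.50 ± 0.20, unadjusted p = 0.0554 by limma). The muscle-type subunit gene Pfkm lay at 7.79 and 7.48 in wild type and 8.14 and 7.85 in Hes1-null marrow, again with both Hes1-null arrays above both wild-type ones (0.36 ± 0.20). The liver-type subunit gene Pfkl, the main form of many myeloid cells, lay at 8.69 and 8.97 in wild type and 8.68 and 8.29 in Hes1-null marrow. Its Hes1-null arrays were the lower ones, with replicate 1 just below the wild-type pair (-0.34 ± 0.21). None of these differences had an unadjusted p under 0.05. Pfkfb3 and Pfkfb4 encode enzymes that make and degrade the fructose bisphosphate that activates phosphofructokinase. Pfkfb4 lay at 7.75 and 7.73 in wild type and 7.47 and 6.92 in Hes1-null marrow, with both Hes1-null arrays lower (-0.54 ± 0.22, unadjusted p = 0.0567 by limma). Pfkfb3 lay at 7.65 and 7.80 in wild type and 7.88 and 7.82 in Hes1-null marrow, where the Hes1-null arrays were higher by less than the wild-type pair's own gap (0.13 ± 0.16).

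The measured main genes of the middle and lower pathway, which leave out Gapdh and Eno1, had small differences between genotypes. Aldoa, the main aldolase gene, lay at 12.00 and 12.11 in wild type and 11.99 and 12.11 in Hes1-null marrow, and the arrays overlapped. Tpi1, the gene of triose phosphate isomerase, differed by -0.034 ± 0.11 and the ATP-making kinase gene Pgk1 by -0.11 ± 0.10. For the mutase gene Pgam1 the value was 0.060 ± 0.085, and for Pkm, the gene of the final kinase, 0.077 ± 0.14. The 3 Pgk1 probe sets agreed, 2 of them holding the same values on every array, as did 2 of the 3 for Pgam1, so these probe sets are not separate measurements. Ldha, which makes lactate from pyruvate, lay at 12.27 and 12.35 in wild type and 12.40 and 12.24 in Hes1-null marrow, with a difference of 0.0083 ± 0.095 (95% interval from -0.23 to 0.25).

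**Figure D3:**
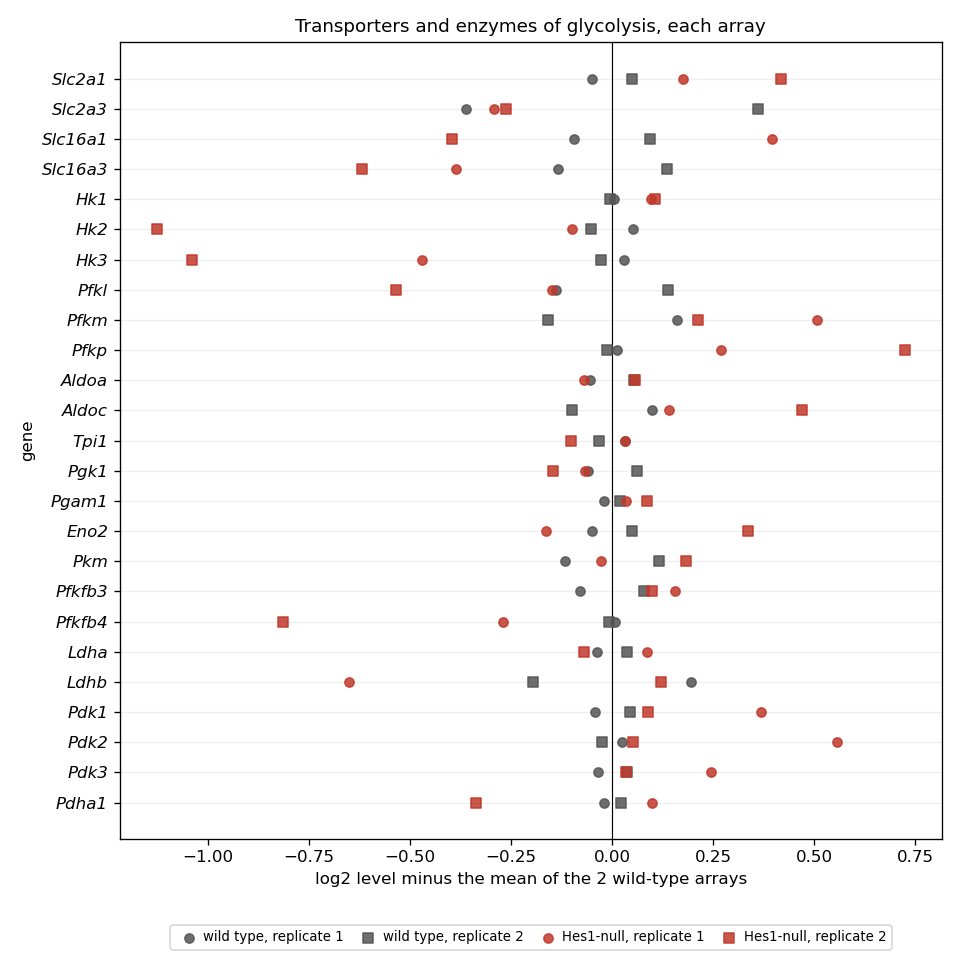
Log2 level of each of 25 glycolysis members minus the mean of its 2 wild-type arrays (x axis), with 1 point per array (y axis, genes in pathway groups). Hes1-null replicate 2 is the leftmost array for Hk2, Hk3 and Pfkfb4 and the rightmost for Pfkp, while the points of Aldoa, Tpi1, Pgk1, Pgam1 and Ldha stay close together.

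Isoenzyme genes best known from other tissues were measured too. The brain-type aldolase gene Aldoc lay at 8.18 and 7.98 in wild type and 8.22 and 8.55 in Hes1-null marrow, with both Hes1-null arrays higher by a narrow margin (0.30 ± 0.20). The neuronal enolase gene Eno2 and the heart-type lactate dehydrogenase gene Ldhb differed by 0.086 ± 0.20 and -0.26 ± 0.29, with overlapping arrays. Its second probe set gave Ldhb a difference of -0.41 ± 0.18 with both Hes1-null arrays below the wild-type pair.

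Pyruvate dehydrogenase admits pyruvate to the mitochondrial cycle, and its kinases switch it off. The 3 kinase genes had positive differences, none at an unadjusted p under 0.05. Pdk1, a HIF target, lay at 8.04 and 8.13 in wild type and 8.45 and 8.17 in Hes1-null marrow (0.23 ± 0.18). Pdk2 lay at 8.22 and 8.17 in wild type and 8.75 and 8.25 in Hes1-null marrow, where Hes1-null replicate 1 alone stood clear of the rest (0.30 ± 0.22). Pdk3 differed by 0.14 ± 0.16 with arrays that overlapped. Pdha1, encoding the catalytic subunit that these kinases phosphorylate, lay at 9.68 and 9.72 in wild type and 9.80 and 9.37 in Hes1-null marrow, with replicate 2 of the Hes1-null group the lowest.

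Of the HIF subunit genes among the members, Epas1, the alpha subunit gene also known as HIF2A and prominent in endothelial cells and macrophages, had a larger difference than Hif1a and Arnt. It lay at 6.54 and 6.71 in wild type and 6.02 and 6.08 in Hes1-null marrow (probe set 10447317), with both pairs tight and apart. The difference was -0.57 ± 0.14 (1.49-fold lower, 95% interval from -0.93 to -0.22), with limma giving 0.00861 as the unadjusted p and 0.336 as the adjusted p. Of 17 stromal and endothelial genes, all measured, 11 were lower and 1 higher on both Hes1-null arrays, beside the 20.6% and 17.4% of all genes. At an unadjusted p under 0.05 by limma, 1 was higher and 7 were lower, beside 3.51% and 4.78% of all genes. The genes with the smallest p were Sparc (-0.99 ± 0.15), Cxcl12 (-0.87 ± 0.15) and Bgn (-0.89 ± 0.16). Over the list the differences ran from -0.99 to 0.80 with a median of -0.33. Endothelial genes were not read apart from stromal ones. The summed intensity of the listed genes was 1896 and 1971 in wild type and 1911 and 1729 in Hes1-null marrow. None was at 0, which does not show detection. The part of such cells, or of the macrophages whose list is given above, in the Epas1 value was not tested. Hif1a, the broadly expressed alpha subunit gene, lay at 9.66 and 9.67 in wild type and 9.43 and 9.76 in Hes1-null marrow, and the 95% interval of its difference ran from -0.51 to 0.37. Its abundance is known to be set mainly at the protein level, which arrays do not measure. Arnt, the shared beta subunit gene, lay at 9.76 and 9.91 in wild type and 9.92 and 10.16 in Hes1-null marrow, with both Hes1-null arrays higher, one of them by 0.01 (0.20 ± 0.16).

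The genes that restrain HIF showed no shared direction. Egln1, the main oxygen-sensing prolyl hydroxylase gene, differed by -0.12 ± 0.21 and Vhl, which encodes the ubiquitin ligase's recognition subunit, by 0.0061 ± 0.21. For both genes the Hes1-null arrays lay on either side of the wild-type pair. Egln3, a prolyl hydroxylase gene that HIF itself induces, lay at 9.84 and 9.03 in wild type and 9.55 and 8.44 in Hes1-null marrow. The arrays of each genotype were 0.81 and 1.12 apart, so its difference of -0.44 ± 0.45 was smaller than the spread within either pair. Replicate 2 was the lower array in both genotypes. With the replicate number as a block, which no label explains, the SE was 0.20 (unadjusted p = 0.0725, adjusted p = 0.669 by limma).

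Ndrg1, a gene induced by hypoxia and by differentiation and repressed by MYC family proteins, had the largest difference among the members. It lay at 9.16 and 9.28 in wild type and 7.44 and 8.08 in Hes1-null marrow (probe set 10429140). Both Hes1-null arrays were lower by more than 1 log2 unit, and the difference was 2.3 times the gap of 0.64 between them. The difference was -1.46 ± 0.25 (2.75-fold lower, 95% interval from -2.10 to -0.82), with limma giving 0.00172 as the unadjusted p and 0.177 as the adjusted p. Only 106 of the 19938 genes had a lower difference, and 193 had a smaller p.

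The other HIF targets had smaller differences. Vegfa, the vascular growth factor gene, lay at 7.78 and 8.50 in wild type and 7.66 and 8.51 in Hes1-null marrow, 1 low and 1 high array in each genotype. The mitophagy receptor gene Bnip3 lay at 8.77 and 9.11 in wild type and 8.89 and 9.55 in Hes1-null marrow (0.28 ± 0.27), and its relative Bnip3l, which also clears mitochondria from maturing red cells, lay at 11.93 and 12.08 in wild type and 12.07 and 12.13 in Hes1-null marrow. Of 13 measured erythroid genes (21 listed), 2 were lower on both Hes1-null arrays (15.4%) and none was higher. Over all genes 20.6% were lower and 17.4% higher, so the lower share was not above the background. The summed intensity of the erythroid genes was 952 and 814 in wild type and 608 and 885 in Hes1-null marrow. Ankrd37, a small HIF-induced ankyrin gene, differed by -0.051 ± 0.15. The collagen prolyl hydroxylase genes P4ha1 and P4ha2 differed by -0.20 ± 0.25 and -0.11 ± 0.15. The arrays of the 2 genotypes overlapped for all of these 6 genes.

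**Figure D4:**
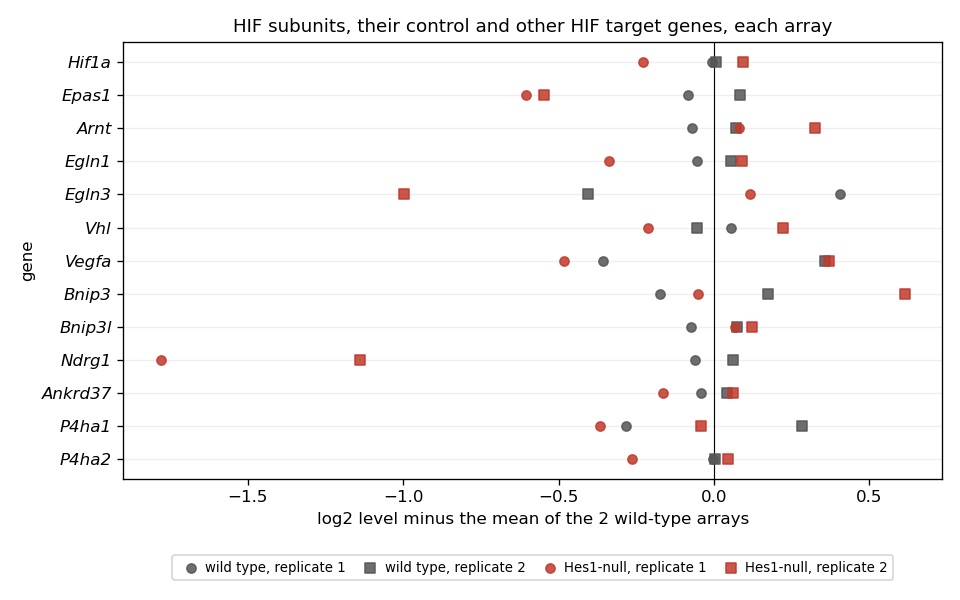
Log2 level of each of 13 HIF members minus the mean of its 2 wild-type arrays (x axis), with 1 point per array (y axis, genes). Both Hes1-null arrays lie to the left of the wild-type pair for Ndrg1 and Epas1, and both lie to the right for Arnt, while Vegfa has 1 low and 1 high array in each genotype.

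The spread within genotypes limited these comparisons, and most of it came from the Hes1-null pair. Its arrays were farther apart than the wild-type arrays for 29 of the 38 members, as for 72.1% of all genes, and at least 0.5 log2 units apart for 11 members against 4. For 9 members the genotype difference exceeded the gap within both pairs (23.7%), as for 25.2% of all genes. Each of the 7 members with an unadjusted p under 0.1 by limma had both Hes1-null arrays outside the wild-type pair. Leaving out 1 array could therefore not change its sign. The size moved with the Hes1-null arrays: Hk3 was -1.04 without replicate 1 and -0.47 without replicate 2, Pfkfb4 -0.81 and -0.27, Pfkp 0.72 and 0.27, Slc2a1 0.42 and 0.18, and Ndrg1 -1.14 and -1.78. Slc16a3 ranged from -0.64 to -0.37 and Epas1 from -0.66 to -0.49 over the 4 arrays left out. Without Hes1-null replicate 1, the members Ndrg1, Hk2, Hk3, Pfkp and Pfkfb4 passed an adjusted p of 0.05 by limma (0.0403, 0.0406, 0.0383, 0.0479 and 0.0467). In that fit 5.01% of all genes passed, against 0.0752% without Hes1-null replicate 2, and the cause was not tested. Either fit assumes that the lone Hes1-null array varies like the wild-type pair. Hk2 was -1.13 without Hes1-null replicate 1 and -0.10 without replicate 2, Pfkl -0.54 and -0.15, Pdk1 0.088 and 0.37, and Pdk2 0.051 and 0.56.

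**Figure D5:**
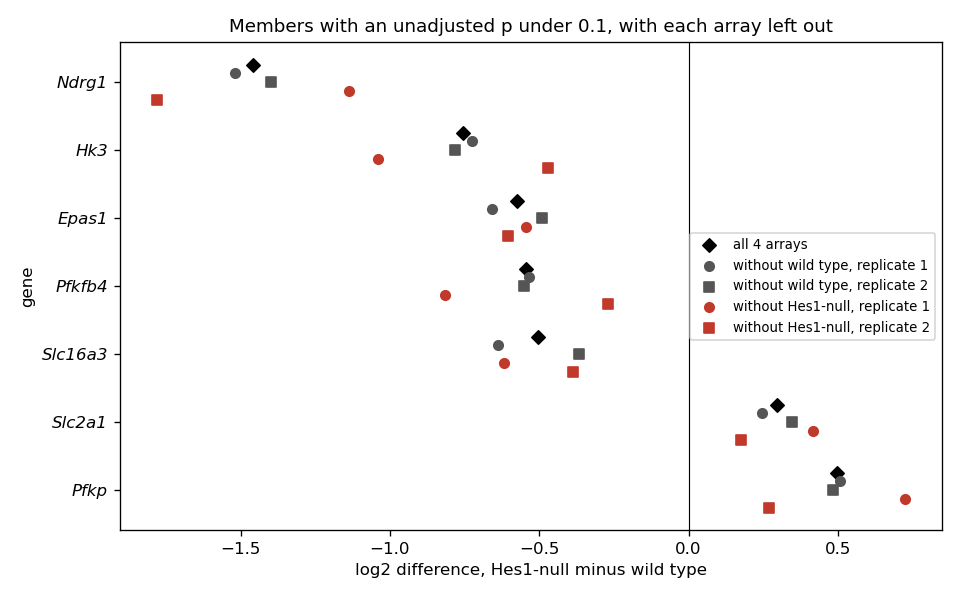
Log2 difference (x axis) of the 7 members with an unadjusted p under 0.1 (y axis), from all 4 arrays (diamonds) and with each array left out. All values of a gene lie on 1 side of 0, as they must where the genotypes do not overlap. For Hk3, Pfkfb4, Slc2a1 and Pfkp they are nearest 0 without Hes1-null replicate 2.

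Other genes of the 2 systems were read from lists of the surrounding pathways. Among 18 further glycolysis genes (21 listed) none passed the adjusted threshold, and 2 were higher and 1 lower at an unadjusted p under 0.05. By limma 3.51% of all genes were higher and 4.78% lower at that unadjusted threshold, the background for each list here. The muscle enolase gene Eno3 lay at 7.23 and 7.66 in wild type and 8.36 and 8.24 in Hes1-null marrow (0.86 ± 0.21), and the muscle mutase gene Pgam2 differed by 0.51 ± 0.17. Adpgk, whose product phosphorylates glucose with ADP, lay at 8.88 and 9.44 in wild type and 8.36 and 7.16 in Hes1-null marrow (-1.40 ± 0.43), with both Hes1-null arrays lower. The fourth, Bpgm, which diverts a glycolytic intermediate into the regulator of hemoglobin, differed by 0.21 ± 0.16. Of 14 genes of pyruvate entry and glucose synthesis (15 listed), 1 was higher and 4 lower at that threshold. The pyruvate transporter gene Slc16a7 lay at 7.45 and 7.10 in wild type and 6.50 and 6.23 in Hes1-null marrow (-0.90 ± 0.20), and Fbp1 and Pck2 of glucose synthesis differed by -0.57 ± 0.20 and -0.60 ± 0.23. The mitochondrial pyruvate carrier gene Mpc1 differed by 0.60 ± 0.24.

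The pentose phosphate pathway branches off after hexokinase and supplies NADPH. Of its 10 measured genes (11 listed), 1 was higher and 2 lower at an unadjusted p under 0.05, beside 3.51% and 4.78% of all genes. Pgd, the second dehydrogenase of the branch, lay at 12.14 and 12.28 in wild type and 11.74 and 11.63 in Hes1-null marrow (-0.52 ± 0.10), with all Hes1-null values lower. The glucose-6-phosphate dehydrogenase gene copy G6pd2 differed by -0.62 ± 0.18, and the array annotation does not show whether its probes are free of the X-linked gene. Pgls, whose product hydrolyses the lactone made between these steps, lay at 8.50 and 8.32 in wild type and 9.23 and 9.08 in Hes1-null marrow (0.75 ± 0.17), and H6pd, the dehydrogenase gene of the endoplasmic reticulum, differed by -0.20 ± 0.16. Of 14 further genes of the HIF system (16 listed), none had an unadjusted p under 0.05. Hif1an, the asparagine hydroxylase gene that inhibits HIF, differed by 0.31 ± 0.15, the ligase subunit gene Rbx1 by -0.31 ± 0.16 and the coactivator competitor gene Cited2 by -0.25 ± 0.14. The alpha subunit gene Hif3a lay at 5.93 and 6.82 in wild type and 8.21 and 6.70 in Hes1-null marrow, where Hes1-null replicate 1 alone was high. Of 33 further HIF target genes (35 listed), 1 was higher and 2 lower at that threshold. The lipid droplet gene Hilpda differed by 0.48 ± 0.16, the VEGF receptor gene Flt1 by -0.64 ± 0.22 and the heme oxygenase gene Hmox1 by -0.92 ± 0.36, and the collagen cross-linker gene Lox (-0.55 ± 0.23) did not reach it. Over these 5 lists none of the genes passed the adjusted threshold, by limma, and 14 of 89 had an unadjusted p under 0.05, against 8.29% of all genes.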

How the data were processed

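RNA of 4 leukemic marrows, 2 of each genotype, was read on Affymetrix mouse gene arrays, 1 a sample. Per the submitters' processing notes, the authors used RMA and Affymetrix Expression Console to make the deposited intensities; versions are not given in the sources used here. They are on a linear scale, and log2 was taken with nothing added. Scaling between arrays is that of the deposited values, so a change in total RNA would not show. Of 35556 probe sets, 21789 carry 1 gene symbol in the platform annotation, 1621 several and 12146 none here; 21698 matched a RefSeq gene of GRCm38.p6 by Entrez number. The brightest probe set by mean level stood for a gene (19938 genes); dim genes were kept, and there were no detection calls. The arrays' number limits the precision.

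The test was that of limma 3.58.1, run in R 4.3.3 (eBayes with an intensity trend, genotype as the only term, two-sided, 2 residual and 3.41 prior degrees of freedom), with Benjamini-Hochberg adjustment over all genes and a threshold of 0.05. The fit was tested on simulated data. Lists get counts and medians, with no set test. The genes and lists were chosen with earlier results of these data known. All members are accounted for; the text names every gene of a pathway list past the adjusted threshold and up to 4 with the smallest p, and of marker lists at most 3. Alternatives were the replicate number as a block, 2 other scalings, 2 level filters, 2 other moderations, weights per array, averaging the probe sets of a gene, and leaving out each array. The brightest probe set with a RefSeq transcript was added after seeing the data.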

Additional observations from a re-analysis of the deposited data

How the results depend on the processing

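Over 14 alternatives, 493 of 527 member values kept their direction and their side of the adjusted threshold, 29 changed sign and 5 passed the threshold anew, all of them without Hes1-null replicate 1. For 20 members no alternative changed the sign. The block, the level filters, the other moderations and the array weights left the difference of each member they kept as it was. They could therefore not change a direction, only a p-value. The 2 alternatives on the choice of probe set could move only the 7 members with several probe sets. No member passed the adjusted threshold under any alternative with all 4 arrays, including the fit with the replicate number as a block, where Ndrg1 had an adjusted p of 0.0761 by limma while the calls over all genes went from 29 to 89. No pairing was used otherwise, since no label ties a number to a shared animal or batch and the deviations of same-numbered arrays had r = 0.050 across genes. Over the alternatives, the adjusted p of Ndrg1 ran from 0.0403 to 0.869. Keeping only genes above the 25th percentile of level gave 17 calls over all genes, keeping those above the median gave 5, array weights gave 45, and leaving out an array gave 6 to 999. With arrays left out, the count of members that passed ran from 0 to 5, that of members higher at an unadjusted p under 0.05 from 0 to 6 and that of members lower from 1 to 9. With all 4 arrays, the count of members higher at an unadjusted p under 0.05 by limma was 0 in the main fit. It was 1, Pfkp, after centring arrays on their median, without the intensity trend and with array weights. Of all genes, 4.39%, 3.78% and 3.43% were higher in these 3 fits. The glycolysis median ran from -0.029 to 0.083 and the HIF median from -0.23 without Hes1-null replicate 2 to 0.089 without Hes1-null replicate 1. Values near 0 changed sign with the scaling: a further quantile normalization gave 0.026 for Slc16a1, 0.0054 for Aldoa and 0.0051 for Ankrd37, and centring gave 0.031 for Slc16a1 and 0.026 for Aldoa. With 1 array left out, these ranges crossed 0: Slc2a3 -0.64 to 0.083, Slc16a1 -0.40 to 0.40, Aldoa -0.069 to 0.057, Tpi1 -0.10 to 0.033, Eno2 -0.16 to 0.34, Pkm -0.039 to 0.19, Ldha -0.069 to 0.085, Ldhb -0.65 to 0.12, Pdha1 -0.34 to 0.098, Hif1a -0.23 to 0.093, Egln1 -0.34 to 0.089, Egln3 -0.998 to 0.12, Vhl -0.21 to 0.22, Vegfa -0.48 to 0.37, Bnip3 -0.052 to 0.61, Ankrd37 -0.17 to 0.063, P4ha1 -0.49 to 0.079 and P4ha2 -0.26 to 0.045. The causes were not tested. No gene carries a detection call, and the number of arrays limits every value.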

Other observations

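Most HIF members had the same order between the arrays of a genotype, a pattern chosen after its values were seen. Of the 13, 12 lay higher on Hes1-null replicate 2 than on Hes1-null replicate 1, all but Egln3, with a median gap of 0.32, where 56.2% of all genes did and their median gap was 0.054. In wild type 11 of the 13 lay higher on replicate 2, with a median gap of 0.12, against 46.9% of all genes and a median of -0.011. Egln3 was lower on replicate 2 in both genotypes, and Vhl was lower on it in wild type only. All other HIF members were higher on replicate 2 in both genotypes. The 25 glycolysis members were split, with 10 higher on Hes1-null replicate 2 and 15 higher on wild-type replicate 2. This is a description of 4 arrays, with no test.

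For 7 members several probe sets were read, in a fit of all probe sets. Bnip3 differed by 0.28 and 0.21, Bnip3l by 0.095 and 0.075, Hk1 by 0.10 and 0.13, Pkm by 0.077 from both, Pgam1 by 0.060 and 0.037, and Pgk1 by -0.11 from each. For Ldhb the values were -0.26 and -0.41.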
